A study of Mus musculus with 5 samples.

Results

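Levels of 10 genes of the naive pluripotency network were followed in mouse pluripotent cells: Zfp42, Esrrb, Tfcp2l1, Tbx3, Nr0b1, Nr5a2, Tcl1, Gbx2, Dppa5a and Fbxo15. They were chosen by name from a table of 23951 genes, all 10 were found there, and all 10 averaged 1 FPKM or more across the libraries, as did 11011 genes in all. The levels in embryonic stem cells (ESCs) make up most of each of these means. FPKM, the number of fragments per unit of transcript length and of sequencing depth, is a level per length, so genes can be compared with each other on it.

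RNA was sequenced from 5 libraries, 1 for each group, all from mouse ESCs of the E14 line or from epiblast stem cells (EpiSCs) that were derived from ESCs in culture and not from embryos. One ESC library came from cells on gelatin with LIF at 1000 U/ml and 15% serum. The other came from ESCs in a basal medium that held LIF together with 10 ng/ml BMP-4, so that serum was absent when BMP-4 was present. EpiSCs were kept in N2B27 medium with FGF2 at 12 ng/ml and Activin A at 20 ng/ml on plates coated with serum, and were left untreated or exposed to 10 ng/ml BMP-4, either for 1.5 h or for 24 h. With 1 library a group there is no spread between replicates, and no difference below was tested. The ranges in parentheses are the confidence bounds deposited with each FPKM value, and they are not a spread between cultures. All cells of a culture were measured together, so fewer cells that express a gene and less RNA per cell cannot be told apart.

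Naive pluripotency is the state of the preimplantation epiblast and of ESCs. It rests on transcription factors that hold each other's genes active under LIF, STAT3 and Wnt input, on top of Oct4 and Sox2, which also serve the primed state of the postimplantation epiblast and of EpiSCs. When cells leave the naive state this added layer is shut off while Oct4 stays on. The 10 genes cover several roles in that layer. Esrrb, Nr5a2 and Nr0b1 encode orphan nuclear receptors, Nr0b1 being a corepressor that lacks the usual DNA-binding domain. Tfcp2l1, Tbx3, Gbx2 and Zfp42 encode transcription factors of the grainyhead, T-box, homeobox and zinc finger families. Tcl1 encodes a coactivator of AKT kinases, Dppa5a a KH-domain RNA-binding protein and Fbxo15 an F-box protein, and the last of these is best known as a reporter gene for reprogramming.

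Of the 10 genes, 7 had a start-site window in the RefSeq promoter table (build GRCm38.p6, 250 bases before to 50 after a start), with 9 windows among them. The upstream 250 bases are shown for Zfp42, Nr0b1 and Tcl1, the matched genes with the widest gap between ESC and EpiSC libraries, each on the strand of its gene. Capitals mark the octamer ATTTGCAT that POU factors such as Oct4 read, the letters CCNCNCCC of Kruppel-like factor sites, and TATAAA, each searched on both strands.
Zfp42, chr8:43307010-43307259, minus strand: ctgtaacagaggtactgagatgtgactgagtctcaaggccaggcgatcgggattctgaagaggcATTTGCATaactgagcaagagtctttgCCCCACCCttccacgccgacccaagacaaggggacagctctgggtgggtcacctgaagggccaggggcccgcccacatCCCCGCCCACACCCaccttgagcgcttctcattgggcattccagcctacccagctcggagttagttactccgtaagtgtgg
Nr0b1, chrX:86191525-86191774, plus strand: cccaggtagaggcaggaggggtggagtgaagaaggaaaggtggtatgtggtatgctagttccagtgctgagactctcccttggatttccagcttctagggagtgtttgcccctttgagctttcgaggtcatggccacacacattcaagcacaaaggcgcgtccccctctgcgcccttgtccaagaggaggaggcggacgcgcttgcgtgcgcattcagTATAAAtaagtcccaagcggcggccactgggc
Tcl1, chr12:105222738-105222987, minus strand: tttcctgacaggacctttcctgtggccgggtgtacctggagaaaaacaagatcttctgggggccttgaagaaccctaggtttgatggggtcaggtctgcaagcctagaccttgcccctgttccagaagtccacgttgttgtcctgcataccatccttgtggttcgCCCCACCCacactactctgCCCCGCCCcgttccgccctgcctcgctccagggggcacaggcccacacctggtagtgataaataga

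The octamer lay in 1 of the 9 windows, that of Zfp42, where it begins 186 bases before the start, and in 1.74% of 32841 windows of all genes. The Kruppel-like letters were common, in 8 of the 9 windows and in 49.5% of all windows. In Zfp42 2 of the 3 upstream matches overlap each other. AAGGTCA, the core of the site that Esrrb and Nr5a2 share, was in 0 of the 9 windows and in 4.72% of all. The STAT letters TTCNNNGAA were in 1 of the 9, in Esrrb, and in 8.30% of all. TATAAA was in windows of Nr0b1, Tfcp2l1 and Nr5a2, and in 13.6% of all. The ratio of observed to expected CpG ran from 0.152 in one Nr5a2 window to 0.861 in Gbx2, with a median of 0.441 beside 0.384 over all windows. The members' windows therefore spanned CpG-poor and CpG-rich starts. These matches describe letters near annotated starts and no binding was measured.

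In ESCs the 10 genes covered a wide range of levels. With LIF and serum they ran from 21.7 FPKM for Nr5a2 to 1336 for Zfp42, with a median of 88.2. With LIF and BMP-4 they ran from 16.7 for Gbx2 to 1341 for Dppa5a, with a median of 64.1. Zfp42 and Dppa5a together made up 80.7% of the summed FPKM of the 10 genes with serum and 82.9% with BMP-4, and were the 2 members among the top 1% of the table in each library. They ranked close to Pou5f1 (Oct4), which was 53rd with serum, where Zfp42 was 71st and Dppa5a 105th.

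The order with serum was Zfp42, Dppa5a, Esrrb, Fbxo15, Nr0b1, Tcl1, Tfcp2l1, Tbx3, Gbx2 and Nr5a2. Only Dppa5a and Esrrb, of the neighbours in that order, had intervals apart. With BMP-4 the order was Dppa5a, Zfp42, Fbxo15, Esrrb, Tcl1, Nr0b1, Tbx3, Tfcp2l1, Nr5a2 and Gbx2. There the step from Zfp42 to Fbxo15 was the one neighbouring pair with intervals apart. In both ESC libraries the genes thus formed an abundant pair and a lower group of 8 whose successive members overlapped.

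**Figure D1:**
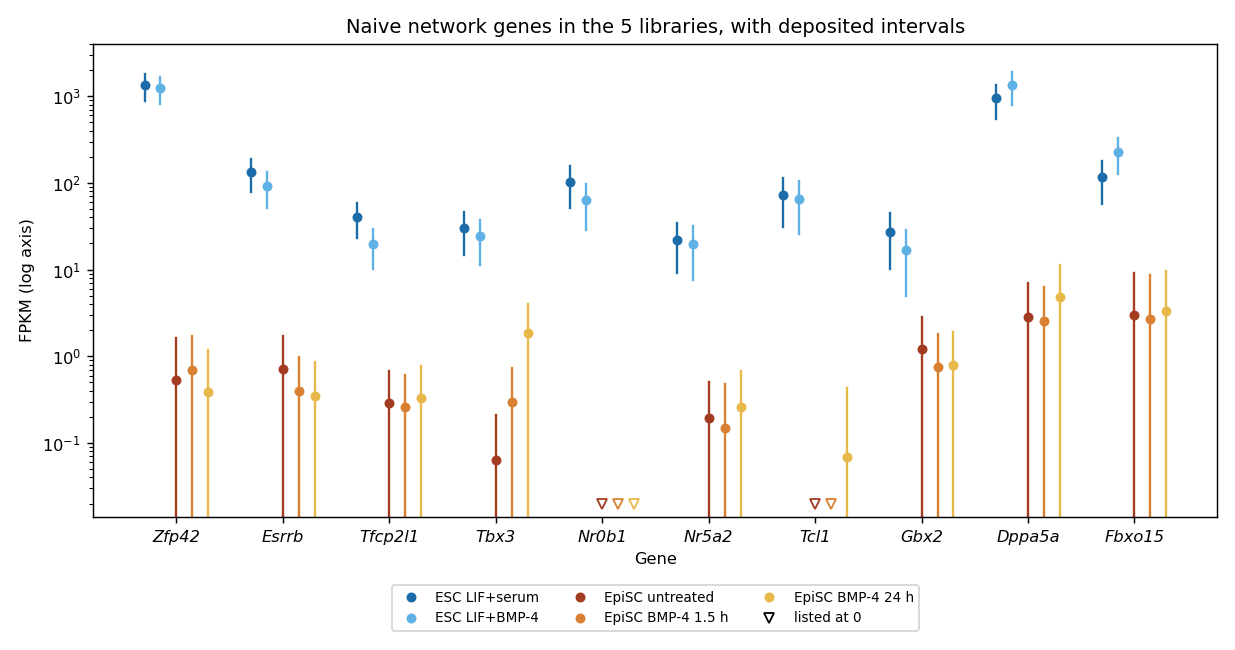
FPKM of each gene on a log axis in the 5 libraries, with points for the deposited values, lines for the deposited confidence bounds (a line that leaves the lower edge has a bound of 0) and open triangles for genes listed at 0. All ESC points lie at or above 16.7 FPKM and all EpiSC points at or below 4.82.

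Among the nuclear receptors, Esrrb (mm9 chr12:87702067-87862578) stood at 132 FPKM (77.7 to 186) in ESCs with serum and 92.1 (51.5 to 133) with BMP-4. In EpiSCs it stood at 0.706 (0 to 1.70) untreated, 0.400 (0 to 0.972) after 1.5 h and 0.346 (0 to 0.854) after 24 h. The highest EpiSC value was 0.535% of the ESC value with serum, and the ESC and EpiSC intervals did not meet.

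The serum level of Nr0b1 (chrX:83437114-83441283) was 103 FPKM (51.5 to 155), and its BMP-4 level 62.8 (28.3 to 97.4). It was listed at 0 in all 3 EpiSC libraries, the one member for which this holds. An exact 0 can be a failed estimate in this table, so no fold is given. At the estimated depth 1 read of Nr0b1 would be worth about 0.0562 FPKM in untreated EpiSCs.

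Nr5a2 (chr1:138740161-138857025) had the lowest level of the members with serum. It stood at 21.7 FPKM (9.04 to 34.4) and, with BMP-4, at 19.6 (7.54 to 31.7). Its EpiSC values were 0.192 (0 to 0.510), 0.147 (0 to 0.474) and 0.262 (0 to 0.673) in the order untreated, 1.5 h and 24 h. These were between 0.677% and 1.21% of the level with serum.

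Of the other transcription factors, Zfp42 (Rex1, chr8:44380421-44392363) had the widest gap of the 11005 genes compared. It stood at 1336 FPKM (882 to 1790) with serum and 1227 (803 to 1651) with BMP-4, and at 0.531 (0 to 1.62), 0.686 (0 to 1.72) and 0.391 (0 to 1.18) in the EpiSC libraries in the same order. That is between 0.0292% and 0.0514% of the serum level. In estimated reads these EpiSC values amount to about 10, 14 and 10, against about 20926 in ESCs with serum.

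Tfcp2l1 (chr1:120524522-120581745), which acts downstream of LIF and STAT3, stood at 40.7 FPKM (23.1 to 58.3) with serum and 19.8 (10.1 to 29.6) with BMP-4. The EpiSC values were 0.290 (0 to 0.680), 0.260 (0 to 0.606) and 0.328 (0 to 0.777). It was the member with the lowest ESC ratio between BMP-4 and serum, at 48.7%, while its EpiSC values lay close together.

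Gbx2 (chr1:91824537-91827751), also a target of LIF and STAT3, stood at 27.3 FPKM (10.2 to 44.5) with serum and 16.7 (5.01 to 28.4) with BMP-4. Untreated EpiSCs held 1.22 FPKM (0 to 2.87), the 1.5 h library 0.745 (0 to 1.83) and the 24 h library 0.793 (0 to 1.93). At 4.48% of the serum level, untreated EpiSCs kept a larger share of Gbx2 than of any other member.

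Tbx3 (chr5:120120871-120134733) stood at 30.6 FPKM (14.7 to 46.4) with serum and 24.3 (11.2 to 37.5) with BMP-4. In EpiSCs it stood at 0.0636 (0 to 0.212) untreated, 0.294 (0 to 0.728) after 1.5 h and 1.86 (0 to 3.97) after 24 h. Tbx3 was the one member whose EpiSC values were spread by more than 2-fold on the FPKM + 1 scale, and they are described with the BMP-4 comparisons.

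The members that are not DNA-binding factors showed the same split. Tcl1 (chr12:106454965-106460947) stood at 73.1 FPKM (31.0 to 115) with serum and 65.3 (25.8 to 105) with BMP-4. It was listed at 0 in untreated EpiSCs and after 1.5 h and stood at 0.0682 (0 to 0.427) after 24 h, which is worth about 1 read. For Dppa5a (chr9:78214861-78216006) the serum level was 946 FPKM (539 to 1353) and the BMP-4 level 1341 (797 to 1885), followed by 2.84 (0 to 7.05), 2.54 (0 to 6.37) and 4.82 (0 to 11.4) in the EpiSC libraries. For Fbxo15 (chr18:85104417-85150784) these were 118 FPKM (56.6 to 180) and 229 (126 to 333), followed by 3.00 (0 to 9.02), 2.69 (0 to 8.57) and 3.31 (0 to 9.67) in EpiSCs. The span of Fbxo15 overlaps that of Timm21, a mitochondrial import gene at 28.5 FPKM in untreated EpiSCs, and no source used here says whether counting used strand, so the low Fbxo15 values are uncertain.

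What was left in EpiSCs differed from member to member. As a share of the level with serum, untreated EpiSCs held 4.48% of Gbx2, 2.54% of Fbxo15, 0.883% of Nr5a2, 0.713% of Tfcp2l1, 0.535% of Esrrb, 0.300% of Dppa5a, 0.208% of Tbx3 and 0.0398% of Zfp42. The shares are not a constant fraction of the ESC level. The order of the members in untreated EpiSCs began with Fbxo15, Dppa5a and Gbx2, and every neighbouring pair in it overlapped.

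Untreated EpiSCs were compared with each ESC library to describe the network in the naive and the primed state. Differences are given as log2(FPKM + 1), a scale that understates the change of low genes, and a gene is counted as higher or lower at 2-fold or more. Against ESCs with serum 10 of 10 members were lower, with all 10 intervals apart. For Nr0b1 and Tcl1, listed at 0 in untreated EpiSCs, both bounds are also 0, so any ESC interval above 0 counts as apart. Of the 11007 genes compared, 9.55% were lower, and 2.84% were lower with intervals apart. The median difference was -5.61 beside -0.02 over all genes compared, from -9.77 for Zfp42 to -3.67 for Gbx2. At least 16-fold lower were 9 of 10 members, all but Gbx2, and 0.863% of all genes. Medians and counts include the genes listed at 0 through FPKM + 1.

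Against ESCs with BMP-4 the count was again 10 of 10, all with intervals apart, where 10.0% of genes were lower and 3.11% were lower with intervals apart. Nr0b1 and Tcl1 again entered with EpiSC bounds of 0. The median was -5.81, from -9.65 for Zfp42 to -2.99 for Gbx2, beside 0.01 over all genes compared. The comparisons share the untreated EpiSC library. Members were proposed as naive genes with such results known, so the counts describe the list and are not independent evidence.

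Set over all 5 libraries, each member was at least 2-fold higher in every ESC library than in every EpiSC library, which held for 6.62% of 11005 genes. The deposited intervals of all ESC libraries lay above those of all EpiSC libraries for 10 of 10 members and for 2.08% of genes. For Nr0b1 every EpiSC bound is 0. The gap between the lowest ESC and the highest EpiSC value was 728-fold in FPKM + 1 for Zfp42, the widest of these genes, and 163-fold for Dppa5a (3rd). Esrrb had a gap of 54.5-fold (14th) and Fbxo15 27.6-fold (32nd). For Nr5a2 it was 16.3-fold (56th), for Tfcp2l1 15.7-fold (58th), for Tbx3 8.85-fold (100th) and for Gbx2 7.96-fold (116th). Nr0b1 and Tcl1 held places 11 and 12 on the same scale.

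**Figure D2:**
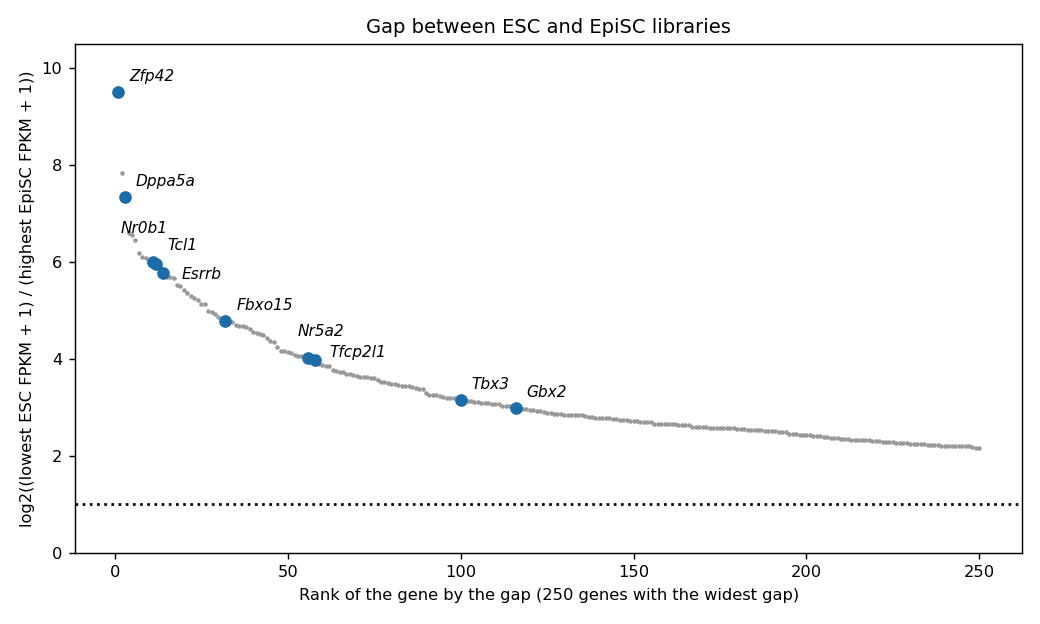
The 250 genes with the widest gap, ranked on the x axis, with the gap as log2 of the ratio of the lowest ESC to the highest EpiSC FPKM + 1 on the y axis. Blue points are the 10 members, grey points other genes, and the dotted line marks 2-fold; Zfp42 stands first and Gbx2 at place 116.

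The labelled states were checked on markers. Of 11 primed epiblast markers, untreated EpiSCs held 11 at a level at least 2-fold above that with serum, beside 11.6% of all genes, and their summed level was 828 FPKM against 66.6. Fgf5, a gene of the primed epiblast that encodes an FGF ligand, differed most, at 0.0495 and 133 FPKM. Fgf5, Fgf8, Cer1, Foxa2 and T were below 1 FPKM in both ESC libraries and passed the filter only through EpiSCs, which favours such calls. Of 6 pluripotency markers of both states, 1 was lower in untreated EpiSCs than with serum and 0 were higher, beside 9.55% and 11.6% of all genes. It was Sox2 (189 and 77.2 FPKM, overlapping intervals). Against ESCs with BMP-4, 3 of the 6 were lower, where 10.0% of genes were. These were Sox2 (243 FPKM with BMP-4) and Tdgf1 (198 and 68.1), both with intervals apart, and Utf1 (142 and 70.2, overlapping). Pou5f1 stood at 1677 FPKM with serum and 1264 in untreated EpiSCs. Fibroblast markers summed to between 3.14 and 6.20 FPKM over the libraries, and Dcn was listed at 0 in all. Trophoblast markers summed to 43.9 and 31.4 FPKM in ESCs and to between 177 and 265 in EpiSCs, mostly as the keratin genes Krt8 and Krt18, while Elf5 was at or near 0 in every library. Of 6 extraembryonic endoderm markers compared with serum, untreated EpiSCs held 4 higher and 1 lower. Higher were Sox17 (0.0705 and 3.63 FPKM, intervals apart), Gata4 (0.0681 and 1.59), Gata6 (0.218 and 1.89) and Lamb1 (18.1 and 43.2). The lower one was Lama1 (15.3 and 0.454, intervals apart). Sox17, Gata4 and Gata6 reached the mean of 1 FPKM only through their EpiSC level and Lama1 only through its ESC level, which favours these counts. Below the filter, Sox7 stood at 0.532 and 0 FPKM and Dab2 at 0.515 and 1.41. Of 5 neural markers compared, Nes was higher (7.55 and 146 FPKM, intervals apart), and Tubb3 and Sox1 were lower (71.9 and 24.8, and 2.21 and 0.245). Sox1 passed the filter only through its ESC level. The part of such cells in the members' levels was not tested.

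The 20 other genes of the naive state that were listed showed the same direction. Of them 17 reached a mean of 1 FPKM, and these pass largely through their ESC level, so the count below was favoured by the filter. Against ESCs with serum 16 of 17 were lower in untreated EpiSCs and 0 higher, where 9.55% and 11.6% of all genes were, with a median of -3.90 beside the -5.61 of the 10 members. Tdh (226 and 0.618 FPKM), the threonine dehydrogenase gene, Jam2 (51.2 and 0.143), a junctional adhesion gene, Klf2 (125 and 2.28) and Tet2 (18.7 and 0.262), a demethylase gene, were among the lower ones. Eras, a Ras-like gene, was the exception, at 27.1 and 15.4 FPKM. Against ESCs with BMP-4 17 of 17 were lower, where 10.0% of genes were. The genes below the filter were Spic, Pramel6 and Pramel7, at 0.616, 0.815 and 0.394 FPKM with serum and listed at 0 in untreated EpiSCs.

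Of the 15 genes of the LIF, Wnt and BMP inputs to the network, 4 were lower in untreated EpiSCs than with serum and 2 higher, with a median of 0.11, where 9.55% of all genes were lower and 11.6% higher. Lower were Socs3, the feedback inhibitor of STAT3 (22.9 and 2.31 FPKM), the LIF receptor gene Lifr (10.9 and 1.37), Stat3 (27.1 and 6.39) and the BMP target Id1 (70.0 and 14.1, with overlapping intervals). Higher were the Wnt effectors Lef1, listed at 0 with serum and at 5.34 FPKM in EpiSCs, and Tcf7 (7.54 and 19.0, with overlapping intervals). The gp130 receptor gene Il6st stood at 9.02 and 5.93 FPKM, Jak1 at 12.1 and 13.2, and Ctnnb1, which encodes beta-catenin, at 232 and 221. Against ESCs with BMP-4 5 of 15 were lower, where 10.0% of genes were, and these included Il6st (13.1 and 5.93 FPKM, overlapping intervals).

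Of 14 listed factors that take cells out of the naive state, 12 could be compared with serum, of which 2 were higher and 1 lower, with a median of -0.16, near the shares of 11.6% and 9.55% among all genes. Higher were the FGF receptor gene Fgfr1 (21.6 and 55.1 FPKM) and Tcf7l1 (6.27 and 15.99), a repressor of Esrrb and other naive genes, both with overlapping intervals, and of these Tcf7l1 was within 2-fold of its level in ESCs with BMP-4 (11.5). Lower was Rbpj (116 and 26.3), the Notch effector, with intervals apart. Of 6 partners of the members' proteins, Ncoa3, a coactivator of Esrrb, was lower (38.4 and 8.03 FPKM, intervals apart) and Akt1, a kinase that Tcl1 binds, higher (22.2 and 58.3, overlapping). Skp1a, Cul1 and Rbx1, the core of the ubiquitin ligase that F-box proteins join, stood within 2-fold.

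The closest relatives of the members were mostly low or alike in both states. Of 21 listed, 8 reached a mean of 1 FPKM. Lower in untreated EpiSCs than with serum were 2 of these 8, Khdc3 and Ooep, beside 9.55% of all genes. These KH-domain genes, listed with Dppa5a, stood at 40.3 and 38.5 FPKM with serum and were listed at 0 in untreated EpiSCs. They reached the mean of 1 FPKM only through their ESC level, which favours the count. Yy1, the widely expressed gene from which Zfp42 derives, stood at 84.7 and 73.7 FPKM, and Yy2 at 2.45 and 1.66. For Esrrb, Esrra stood at 3.20 and 7.30 FPKM while Esrrg was listed at 0 in both. For Tfcp2l1, Tfcp2 stood at 2.14 and 3.04 and Ubp1 at 21.3 and 16.2. Tbx2, Tbx4, Tbx5, Nr0b2, Nr5a1 and Gbx1 had means below 1 FPKM, so that relatives of Tbx3, Nr0b1, Nr5a2 and Gbx2 were at or near 0 on both sides. Mtcp1, a relative of Tcl1, stood at 2.40 and 4.65.

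Genes beside the members were read by the positions in the file. Within 200 kb lay 52 other genes, of which 23 averaged 1 FPKM or more. Of these 23, 8 were lower in untreated EpiSCs than with serum (34.8% of them, beside the 9.55% of all genes) and 1 was higher, with a median difference of -0.02. Among the 8, Triml1, Triml2, Ooep and Gsta4 had intervals apart, and Ddx43, Vash1, Gli2 and Gm19705 overlapping ones. Vash1 lay 157 kb from Esrrb (4.59 FPKM with serum, 1.31 with BMP-4 and 0.911 in untreated EpiSCs). Gli2 lay 149 kb from Tfcp2l1 and Gm19705 153 kb from Nr5a2. Ooep, Ddx43, Triml1 and Triml2 reached the mean of 1 FPKM only through their ESC level, which favours the count. The neighbours of Zfp42 were the most alike it. Triml2, 101 kb away, stood at 141 FPKM in ESCs with serum, 125 in the other ESC library and between 0.494 and 0.735 in EpiSCs, and Triml1, 154 kb away, at 40.6, 35.4 and between 0.115 and 0.256. The intervals were apart between untreated EpiSCs and ESCs with serum for both.

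Beside Dppa5a, the oocyte gene Ooep lay 8.70 kb away, at 38.5 FPKM in the serum culture and 62.5 in the BMP-4 culture, and the helicase gene Ddx43, 27.6 kb away, stood at 4.34 and 5.89, against 0.986 in untreated EpiSCs. Gsta4, 158 kb away, stood at 374, 504 and 106 FPKM in the same libraries. The elongation factor gene Eef1a1, 110 kb away, stood at 9968, 9189 and 9824 FPKM, so the neighbourhood of Dppa5a held genes of both kinds. Around Tcl1 the related genes Tcl1b1, Tcl1b2, Tcl1b3 and Tcl1b5 were listed at 0 in all 5 libraries, and Tcl1b4, 9.76 kb away, stood at 0.377 FPKM with BMP-4 and was listed at 0 elsewhere. Tbx3os2, 0.364 kb from Tbx3, stood at 1.04 and 1.72 FPKM in ESCs, at 0 in untreated EpiSCs and after 1.5 h, and at 0.0604 after 24 h. Gbx2, Tcl1 and Fbxo15 had neighbours in the window that averaged 1 FPKM or more, and none differed by 2-fold or more between untreated EpiSCs and ESCs with serum. Nr0b1 and Tbx3 had no neighbour with such a mean, so none was compared there. Timm21, over Fbxo15, stood at 9.16 FPKM in ESCs with BMP-4, below all 3 EpiSC libraries.

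**Figure D3:**
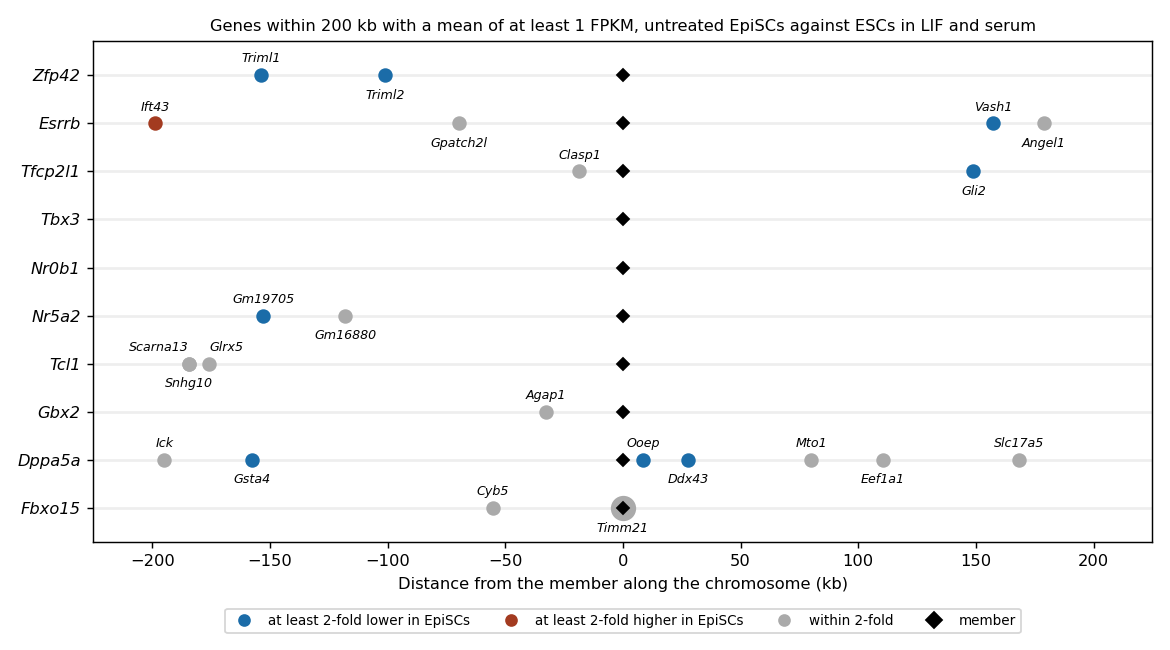
Genes within 200 kb of each member (black diamonds at 0 kb) with a mean of at least 1 FPKM, placed by distance along the chromosome and coloured by their difference between untreated EpiSCs and ESCs with serum. Blue points, at least 2-fold lower in EpiSCs, are 8 of 23 and lie within 200 kb of Zfp42, Dppa5a, Esrrb, Tfcp2l1 and Nr5a2. Ift43, within 200 kb of Esrrb, is the 1 red point, at least 2-fold higher.

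Across the 5 libraries the profiles of single members were set against 10382 other genes, as the root mean square difference of log2(FPKM + 1) after centring each gene on its own mean. The measure is led by the split between ESCs and EpiSCs, which many genes share, and is a description. Nr5a2 was nearest to Trim25 (0.025) and Gdf3 (0.070), a TGF-beta family ligand gene, and Tcl1 to Hspb1 (0.091) and Sept1 (0.114). Esrrb was nearest to Sept1 (0.118) and to Triml2 (0.203), and Nr0b1 to Sept1 (0.162) and Olfr856-ps1 (0.165). Gbx2 was nearest to Vegfc (0.125) and Ly75 (0.160). Fbxo15 was nearest to Hsf2bp (0.130) and Ooep (0.151), which also stood higher with BMP-4 than with serum.

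Tfcp2l1 was nearest to Tgm1 (0.191) and Syce1 (0.208), which likewise stood lower with BMP-4. Tbx3 was nearest to Epb4.1l4a (0.297), whose value after 24 h, 7.20 FPKM, was above its untreated value of 2.37. Zfp42 and Dppa5a were both nearest to Rpl10l, at 0.855 and 0.269, and next to Tdh, at 1.32 and 0.729, so Zfp42 lay farthest of the members from its nearest gene. The mean profile of the 10 members was nearest to Hspb1 (0.158), Jam2 (0.198), Phf11d (0.229), Mylpf (0.232) and Fabp3 (0.241). Among the members the most alike pair was Esrrb and Nr0b1 (0.143) and the least alike Zfp42 and Gbx2 (3.02).

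The ESC libraries were compared with each other to ask how the network stands when BMP-4 takes the place of serum. Tfcp2l1 was 1 member of 10 lower with BMP-4, where 1.28% of genes were lower, and 0 of 10 were higher, where 2.61% were. Its difference was -1.003, at the threshold, with overlapping intervals. All 10 members had overlapping intervals in this comparison, and intervals were apart for 0.163% of genes higher and 0.0363% lower. The median over the members was -0.24, beside -0.02 for all 11010 genes compared.

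The members did not move as a block between the ESC cultures. With BMP-4, 8 of 10 stood below their serum value, where 52.1% of all genes did. The order was Tfcp2l1 (-1.003), Nr0b1 (-0.71), Gbx2 (-0.68), Esrrb (-0.52), Tbx3 (-0.32), Tcl1 (-0.16), Nr5a2 (-0.14) and Zfp42 (-0.12). Fbxo15 (0.95) and Dppa5a (0.50) stood above it. Among all genes the range from the 5th to the 95th percentile was -0.59 to 0.75, so Tfcp2l1, Nr0b1 and Gbx2 lay below it and Fbxo15 above it. With the libraries rescaled by the median ratio, Tfcp2l1 came to -0.95 and Fbxo15 to 1.00, which exchanges the lower call for a higher one.

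Of the 17 other naive genes 0 were higher or lower in this comparison, with a median of 0.13, and of the 15 input genes also 0. Among all genes 2.61% were higher and 1.28% lower, shares that also stand beside the marker calls below. At such shares 0 calls among 17 or 15 genes say little. Socs3 stood at 22.9 and 26.1 FPKM, Stat3 at 27.1 and 27.9, and Id1 at 70.0 and 101. Of 6 markers of 2-cell-like cells 1 averaged 1 FPKM or more, Zscan4f, which was higher with BMP-4 (0.201 and 5.93 FPKM, overlapping intervals). Zscan4f reached that mean only through its level with BMP-4, so the filter favoured this call. The summed level of the 6 was 0.780 FPKM with serum and 12.4 with BMP-4, almost all of it from near-identical Zscan4 genes whose reads may be shared, and Tcstv1 and Tcstv3 were listed at 0 in both. Of the primed epiblast markers Zic2 was higher with BMP-4 (0.826 and 8.13 FPKM, intervals apart). Of the neural markers Pax6 was higher (0.922 and 6.40) and Tubb3 lower (71.9 and 35.3), and of the trophoblast markers Krt8 was lower (28.4 and 11.3), all with overlapping intervals. Pax6 too passed the filter only through its level with BMP-4. The part of these markers' cells in the differences of the members was not tested. Medium and BMP-4 changed together, so they cannot be told apart.

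**Figure D4:**
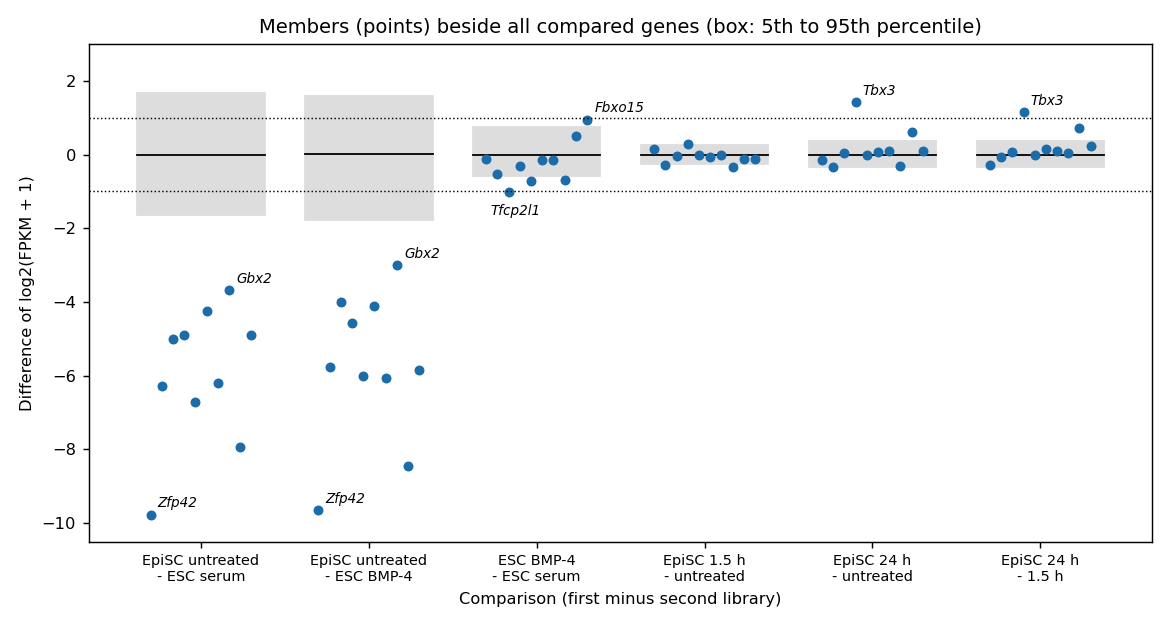
Differences of log2(FPKM + 1) of the 10 members (blue points) in the 6 comparisons, each the first library minus the second, beside a box from the 5th to the 95th percentile of all compared genes with a line at their median, and dotted lines at 2-fold. Members lie from -9.77 to -2.99 in the comparisons of cell types and from -1.003 to 1.43 in the others.

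The 1.5 h library was set against the untreated one for the early response of EpiSCs to BMP-4. Of the members 0 of 10 were higher and 0 lower, where 0.236% and 0.182% of genes were. Only 3 of the 10 stood at 1 FPKM or more in untreated EpiSCs. From below 1 FPKM even a fall to 0 is under 2-fold in FPKM + 1, so a lower call was open to those 3 only. The median was -0.05 beside -0.01 over all genes compared, and the members ranged from -0.35 for Gbx2 to 0.28 for Tbx3. Read counts show how little lies behind these values: Tfcp2l1, Dppa5a and Fbxo15 amount to about 26, 17 and 56 estimated reads in each of the untreated and 1.5 h libraries. Esrrb, at about 30 and 19 reads, and Gbx2, at about 26 and 17, stood lower after 1.5 h. The BMP target Id1 stood at 14.1 and 184 FPKM in the same libraries.

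After 24 h 1 of 10 members, Tbx3, was higher than in untreated EpiSCs and 0 were lower, where 0.654% of genes were higher and 0.527% lower. Again a lower call was open only to the 3 members at 1 FPKM or more in untreated EpiSCs. From 0.0636 FPKM untreated and 0.294 after 1.5 h, Tbx3 came to 1.86 after 24 h, 2.69-fold in FPKM + 1 and 29.3-fold as a plain ratio. The deposited intervals of the untreated and 24 h values overlap. Estimated reads for Tbx3 were about 3, 16 and 124, the highest of the members after 24 h. By FPKM it stood below Dppa5a (4.82) and Fbxo15 (3.31) there, whose transcripts are shorter. The 24 h value of Tbx3 was still 6.09% of the level in ESCs with serum. Among 11006 genes compared at 24 h against untreated, counted from the lowest difference, Tbx3 stood at place 10971. Against 1.5 h Tbx3 was 2.21-fold higher on the same scale, the 1 of 10 members called there, beside 0.609% of genes higher.

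Tbx3 also acts outside the naive state, in extraembryonic endoderm and in mesoderm. Of 10 extraembryonic endoderm markers 6 had a mean of at least 1 FPKM, and 0 of these were higher or lower at 24 h. Their summed level over all 10 was 61.0 FPKM untreated, 62.0 after 1.5 h and 60.5 after 24 h, with Gata6 at 1.89 and 1.06 and Sox17 at 3.63 and 1.87 untreated and after 24 h, and Afp at 0 and 0.0368. Ttr, below the filter, was listed at 0 untreated and stood at 0.0831 FPKM after 1.5 h and 1.16 after 24 h, with overlapping intervals, and Gata4 stood at 1.59 untreated and 2.13 after 24 h. The mesoderm factor gene T stood at 11.9 FPKM untreated and 89.2 after 24 h. It was the 1 higher of the 11 primed epiblast markers. Lower were 6 of them, Cer1 (35.0 and 1.31), Lefty1, Foxa2, Otx2, Fgf5 and Sox3, of which Cer1 and Lefty1 had intervals apart. Of 6 trophoblast markers compared, 1 was higher, Cdx2, also a posterior factor (1.55 and 13.7). Krt7 was the 1 lower (5.25 and 1.00), both with overlapping intervals. Among all genes 0.654% were higher and 0.527% lower. The summed trophoblast markers stood at 192 and 265 FPKM. The part of these cells in the Tbx3 value was not tested.

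Apart from Tbx3, the members showed no common direction at 24 h. Dppa5a stood at 4.82 FPKM, a difference of 0.60 from untreated EpiSCs, with about 17 and 40 estimated reads. Fbxo15 was at 0.11, Nr5a2 at 0.08, Tcl1 at 0.10 and Tfcp2l1 at 0.04 above untreated on the log2 scale, while Esrrb (-0.34), Gbx2 (-0.31) and Zfp42 (-0.14) stood below. The median was 0.06. In all, 6 of 10 stood above untreated, 3 below and Nr0b1 was listed at 0 in both, and 49.1% of all genes stood above. Of the 17 other naive genes 1, Eras, was lower after 24 h (15.4 and 6.21 FPKM, overlapping intervals) and 0 were higher. Among all genes 0.527% were lower and 0.654% higher. A lower call was open only to the 10 other naive genes at 1 FPKM or more in untreated EpiSCs. Klf5 stood at 6.07 and 9.52 FPKM and Dppa3 at 0.463 and 0.908. The comparisons at 1.5 h and 24 h share the untreated library, so their values stand side by side and are not independent. The members' summed level was 8.85, 7.76 and 12.2 FPKM in the EpiSC libraries, against 2829 and 3098 in the ESC libraries.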

How the data were processed

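The deposited values are FPKM per gene with lower and upper confidence bounds and a status, per the file headers, and were deposited by the authors, whose tools, per the submitters' processing notes, were TopHat, Cufflinks, Picard and SAMtools with the build mm9. No source used here gives the annotation, filters, strand setting or scaling between libraries. Directional libraries were made from poly(A) RNA, per the labels' protocols. All 10 members had the status OK in each library. A listed 0 may stand for an estimate that failed: Hmgcs1, a widely expressed gene, is listed at 0 throughout.

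From these values differences of log2(FPKM + 1) were computed in Python 3.11.15 for 6 comparisons over genes that averaged 1 FPKM or more, with a call at 2-fold. The script was tested on simulated data. Alternatives changed the pseudocount, the filter, the scaling, the fold and the use of intervals. Members and lists were chosen with earlier results of these data known. Named genes were the members, up to 4 higher and 4 lower genes of a list, genes covered by a count of 5 or fewer, the nearest profiles (2 a member, 5 for their mean, with 1 gene not reported here) and the nearest genes by position. Other genes named beside them, such as markers, list members within 2-fold and further neighbours, were chosen after their values were seen. Depth was estimated from whole-read steps of values below 0.5 FPKM in genes with 1 GENCODE M21 transcript over 1500 nt, at 8.53, 8.61, 9.84, 11.0 and 13.4 M reads in the order serum, BMP-4, untreated, 1.5 h and 24 h. Of the lowest of these values, worth a few reads at most (286 to 314 a library), between 66.8% and 71.3% lay within 0.1 of a whole read. The size of 1 read was set from the same values, which favours this share. Estimated reads use the longest coding transcript and are approximate. Gene positions are from the file, written from 1, and can span several genes.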

Additional observations from a re-analysis of the deposited data

How the results depend on the processing

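Among counts and medians recomputed under an alternative, 109 stayed close to the value given and 16 moved, with 0 reversed. Among differences of single members, 268 stayed close and 32 moved. Part of these could not move. Every member averaged at least 8.39 FPKM, so dropping the filter or raising it to 5 FPKM left every value unchanged. Only medians and differences of at least 1 in size could be labelled reversed, and counts could not. The 10 of 10 lower members in EpiSCs stayed at 10 under every alternative run, against each ESC library and over all 5 libraries. Leaving out each library in turn also gave 10 for the last of these. That outcome was fixed, because the gap between the lowest ESC and the highest EpiSC value cannot narrow with fewer libraries. The median against ESCs with serum was -7.45 with a pseudocount of 0.1 and -3.96 with 5, and against ESCs with BMP-4 -7.03 and -3.79. Between the ESC libraries the lower count of 1 became 0 with a pseudocount of 5, with rescaling, at 4-fold and with intervals apart, and rescaling gave 1 higher. With a pseudocount of 0.1, Tbx3 made the higher count at 1.5 h 1 in place of 0. The higher count of 1 at 24 h, against untreated and against 1.5 h, became 0 with a pseudocount of 5, at 4-fold and with intervals apart. The cause of these moves was not tested beyond the settings themselves. No paired analysis was possible because there was a single library per group. Depth limits the EpiSC values, most of which rest on under 60 estimated reads, and the deposited lower bound is 0 for every member there.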
